A study of Rattus norvegicus with 24 samples.

Results

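The AP-1 Fos and Jun family was described here through its 7 genes, Fos, Fosb, Fosl1, Fosl2, Jun, Junb and Jund, out of 15273 gene symbols in the deposited table. The members were chosen by gene symbol, and the values of the 8 transcripts that carry these symbols were summed per gene. The muscles were the left and right tibialis anterior (TA), the main dorsiflexor of the ankle, of 12 adult male Wistar rats. The left muscle was trained with 1 session a day for 2, 10, 20 or 30 days by a pulse generator implanted in the abdomen, with an electrode under the common peroneal nerve, and with part of the calf muscle recruited to resist the contraction. The right muscle of the same rat was left unstimulated and served as the contralateral control. There were 3 rats, and so 3 trained and 3 contralateral muscles, at each of the 4 time points, and both muscles were taken 1 h after the last session. All rats carried the implant, so the contralateral muscles share the surgery and whatever the training did to the whole animal. With sampling at a fixed time after a session, the response to the latest session and the state left by earlier ones cannot be told apart. The libraries were poly-A RNA of whole muscle, in which fewer cells of a type and less RNA per cell cannot be told apart.

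AP-1 is a transcription factor made of dimers of bZIP proteins. Jun proteins pair with each other or with Fos proteins, whereas Fos proteins need a Jun partner to bind DNA. Fos, Fosb, Jun and Junb are classical immediate early genes, transcribed within minutes of a stimulus from promoters that respond to serum response factor, CREB and AP-1 itself, and their mRNAs decay quickly. Jund is usually the most steadily expressed Jun gene, and Fosl1 and Fosl2 encode the Fos proteins Fra-1 and Fra-2. In skeletal muscle the family is known to respond to contraction and stretch.

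Levels are given as scaled TPM, that is, the deposited transcript values divided by a median-of-ratios factor for each library. The deposited values were taken here to be TPM, a unit that accounts for transcript length and library size. Differences are given as log2(scaled TPM + 1), which understates the change of low genes, with the standard error (SE) of a limma fit over 11196 genes. A gene was called at an adjusted p under 0.05 (Benjamini-Hochberg over those 11196 genes). The 4 comparisons of trained muscles share the same 12 contralateral muscles, so they are not independent of one another. The skeletal muscle fibre markers were high in every library, their 10 genes summing to 66834 or more. The mitochondrially encoded share of the values ran from 23.4% to 28.5% in trained muscles at 2 and 10 days and from 39.9% to 43.9% at 30 days. In the contralateral muscles it ran from 27.8% to 34.6%, apart from 43.7% in contralateral 30 days replicate 1.

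In contralateral muscle the family was mostly Jun. Jun averaged 48.5 ± 6.02 scaled TPM (SD, n = 12), from 39.3 to 58.5, and it lay above Jund in all 12 muscles without overlap of the ranges. Jund followed at 13.7 ± 2.89, Fos at 10.4 ± 6.42 and Junb at 7.61 ± 5.41. These 3 neighbours overlapped, with Jund above Fos in 9 of 12 muscles and Fos above Junb in 7 of 12. Fosb at 0.495 ± 0.327, Fosl2 at 0.467 ± 0.279 and Fosl1 at 0.266 ± 0.103 were all low and overlapped with each other, and Fosb lay below Junb in all 12 muscles without overlap. Fos ranged from 3.49 to 23.01 between contralateral muscles and Junb from 2.45 to 23.6. The highest Fos, Junb and Fosb (1.14) came from contralateral 2 days replicate 2. A limma F test across the 4 time points called none of the 6 tested members in contralateral muscle, where 0.0625% of all genes were called. Fos had the smallest p of them (unadjusted p = 0.0329, adjusted p = 0.425), and it was the only member under 0.05 before adjustment, against 10.7% of all genes.

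Of the 7 members, 6 could be tested. Fosl2 reached 1 scaled TPM in 2 muscles and was below the filter of 1 in at least 3 muscles. Fosl1 reached it in 6 muscles, all trained, and Fosb in 12 trained and 2 contralateral muscles, so both passed through the trained group. After 2 days all 6 tested members were called higher in trained muscle, where 15.4% of all genes were. After 10 days all 6 were again called higher, against 15.6% of all genes, after 20 days 5 (11.7%) and after 30 days 3 (11.1%). Fos, Fosb and Junb were called at all 4 time points, as were 5.24% of all genes. Over the 12 rats, with the rat as a block, all 6 were called higher (19.7% of all genes). The trained muscle exceeded the contralateral muscle of the same rat in 12 of 12 rats for Fos, Fosb, Fosl1, Junb and Jund, in 11 for Jun and in 8 for Fosl2, and 8.45% of all tested genes did so in 12 of 12. All 3 trained muscles lay above all 12 contralateral muscles for 6 tested members after 2 days (8.57% of all tested genes), 6 after 10 days (10.0%), 5 after 20 days (8.23%) and 3 after 30 days (7.48%), the last being Fos, Fosb and Fosl1. These background shares move with the scaling. Of the genes called at 2, 10, 20 and 30 days, 53.4%, 53.9%, 54.9% and 54.0% were higher, and with the values as deposited 74.5%, 75.4%, 61.0% and 20.0% were. As deposited, 18.9%, 18.6%, 10.3% and 5.74% of all genes were called higher, and the members called were still 6, 6, 5 and 3.

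**Figure D1:**
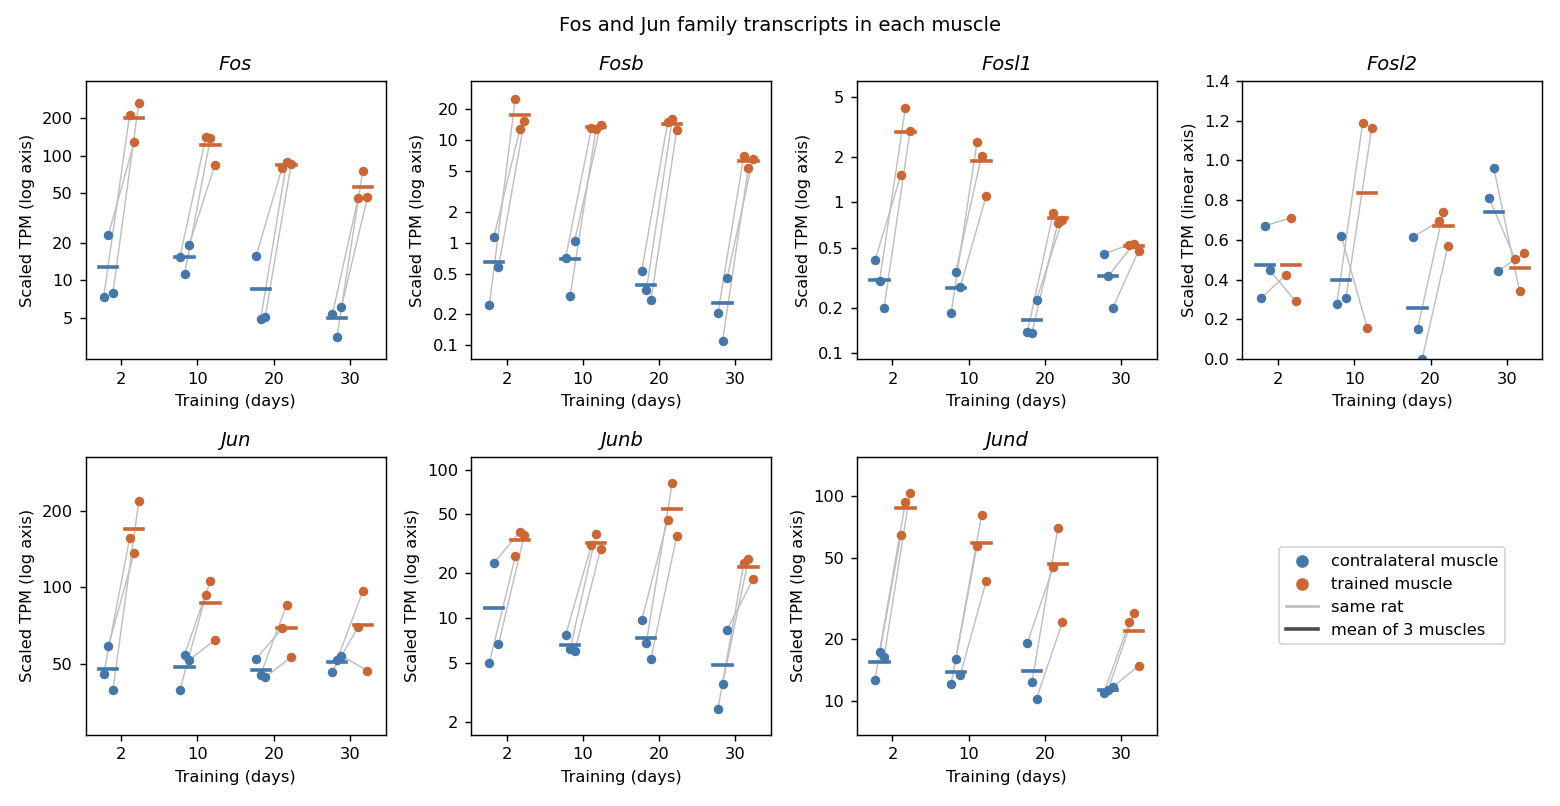
Scaled TPM of each Fos and Jun family gene (a panel for each gene, log axis, but linear for Fosl2) against days of training, with 3 contralateral (blue) and 3 trained (orange) muscles a time point, a grey line joining the muscles of 1 rat and a bar at each mean. Fos and Fosb stay far above the contralateral muscles at all times, Fosl1, Jun and Jund come down towards them by 30 days, and Fosl2 overlaps except in 2 trained muscles at 10 days.

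Fos, whose transcript Fos-201 lies on chromosome 6 from 109300433 to 109303300 on the plus strand (rn6, as the file gives it), was raised at every time point. After 2 days the trained muscles held 213, 129 and 265 scaled TPM, after 10 days 140, 138 and 84.7, after 20 days 79.6, 88.3 and 86.1, and after 30 days 46.1, 75.6 and 46.2. Every one of these lay above all 12 contralateral muscles, which reached 23.01 at most. The mean was 19.5 times the contralateral mean after 2 days, 11.6 times after 10, 8.16 times after 20 and 5.39 times after 30 days. The log2 difference was 4.30 (SE 0.38, adjusted p = 1.01e-08) after 2 days and 2.49 (SE 0.38, adjusted p = 5.36e-05) after 30 days. All 3 trained muscles at 30 days lay below all 3 at 2 days, and the difference between these groups was -1.81 (SE 0.48, adjusted p = 0.0127). At 20 days the difference from 2 days was -1.18 (SE 0.48, adjusted p = 0.136), where the median of all genes was -0.01. In the authors' gene-level table the difference was -1.43 (adjusted p = 0.0371), where the median of all genes was -0.21. Over 14 alternatives the adjusted p ranged from 0.0371 to 0.625. The 30-day call was lost within rats, where the difference was -0.76 (adjusted p = 0.557). The contralateral muscles of the 30-day rats held Fos at 5.31, 3.49 and 6.11, against 7.38, 23.01 and 7.88 at 2 days. The ratio of trained to own contralateral muscle had a median of 28.8 after 2 days (5.60 to 33.6) and of 8.67 after 30 days (7.56 to 21.7). The lowest 2-day ratio, 5.60, was that of replicate 2, with 129 over 23.01. The cause of the smaller difference within rats was not tested. The call was also lost without trained 2 days replicate 3 (-1.59, adjusted p = 0.0655) or trained 30 days replicate 3 (-1.70, adjusted p = 0.0518), and the adjusted p ranged from 2.17e-04 to 0.557 over 14 alternatives.

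Fosb, which encodes FosB and, by splicing, the shorter and more stable DeltaFosB protein, rose from very low levels. Its trained muscles held 25.2, 12.8 and 15.4 scaled TPM after 2 days and 13.1, 12.9 and 14.2 after 10 days. They held 14.9, 15.9 and 12.6 after 20 days and 7.05, 5.41 and 6.54 after 30 days. The lowest of these was above the highest contralateral value of 1.14. The ratio of means was 35.9 after 2 days, 27.0 after 10, 29.2 after 20 and 12.8 after 30 days, with log2 differences of 3.63, 3.29, 3.40 and 2.32 (SE 0.17 each). The difference between 20 and 2 days was not called, at -0.23 (95% interval -0.69 to 0.23), and Fosb lay lower at 30 days by -1.31 (SE 0.22, adjusted p = 3.52e-04). Within rats the last difference was -0.94 (adjusted p = 0.127, with a range of 4.98e-07 to 0.127 over 14 alternatives).

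Fosb was the only member with more than 1 transcript in the table, Fosb-201 (chromosome 1, 80214691 to 80221418) and Fosb-202 (80214494 to 80221711), both on the minus strand. Fosb-202 took 51.9% to 69.2% of the Fosb value in the 12 trained muscles, with medians from 61.1% to 65.4% at the 4 time points. In contralateral muscle its share ran from 0.385% to 100%, at Fosb levels of 1.14 or less, where few reads decide it. The transcripts overlap over nearly their whole length, so the split rests on how the quantification shared reads between them. Which transcript codes for which protein was not determined here.

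Fosl1 (Fos-like 1, Fra-1) rose to modest levels after 2 and 10 days and then approached the contralateral range. The trained values were 1.52, 4.27 and 3.00 scaled TPM after 2 days, 2.53, 2.05 and 1.11 after 10 days, 0.854, 0.731 and 0.767 after 20 days and 0.525, 0.533 and 0.476 after 30 days. The contralateral muscles lay between 0.136 and 0.453, just below the 30-day trained muscles. The log2 difference was 1.57 (SE 0.15, adjusted p = 2.04e-08) after 2 days, 1.16 after 10 days and 0.50 (adjusted p = 0.0156) after 20 days. It was 0.26 (SE 0.15, adjusted p = 0.220) after 30 days, with a 95% interval from -0.04 to 0.56. A pseudocount of 0.1 in place of 1, which weights low values more, gave 0.79 at 30 days (adjusted p = 0.0391, with a range of 0.0391 to 0.591 over 23 alternatives). The 20-day call was lost without trained 20 days replicate 1 (0.47, adjusted p = 0.0726, with a range of 0.00105 to 0.0726 over 22 alternatives). At 10 days its difference from trained muscle at 2 days was -0.41 (adjusted p = 0.289) and, without trained 2 days replicate 1, -0.70 (adjusted p = 0.0150, with a range of 0.0150 to 0.793 over 12 alternatives). Against the 2-day muscles, Fosl1 was lower at 20 days by -1.08 (SE 0.18, adjusted p = 7.25e-04) and at 30 days by -1.31 (SE 0.18, adjusted p = 6.30e-05). Within rats the difference at 30 days kept its call (-1.34, adjusted p = 0.0243, with a range of 4.33e-07 to 0.0243 over 12 alternatives). The 20-day difference was not called within rats (-0.92, adjusted p = 0.0976, with a range of 6.39e-06 to 0.0976 over 12 alternatives).

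Fosl2 (Fra-2) stood apart from the other Fos genes in its values. Its 12 trained muscles held 0.158 to 1.19 scaled TPM and its contralateral muscles 0 to 0.962, and 10 of the 12 trained values lay within the contralateral range. Without the filter on low values its log2 differences were 0.02, 0.29, 0.21 and 0.01 at 2, 10, 20 and 30 days (SE 0.17 each, adjusted p from 0.256 to 0.975). The 2 muscles above all contralateral values were both at 10 days, at 1.19 and 1.17, and the other muscle of that group held 0.158, the lowest trained value.

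Jun, at the head of the family in contralateral muscle, had smaller ratios of means than Fos, 3.51 after 2 days and 1.47 after 30 days. The trained muscles held 156, 137 and 219 scaled TPM after 2 days and 93.1, 106 and 62.1 after 10 days, all above the contralateral maximum of 58.5. They held 68.9, 85.2 and 53.0 after 20 days and 69.8, 96.6 and 46.9 after 30 days, when 1 muscle of each group fell within the contralateral range. The log2 difference was 1.77 (SE 0.18, adjusted p = 8.15e-08) after 2 days and 0.81 (adjusted p = 0.00140) after 10 days. It was 0.48 (adjusted p = 0.0574) after 20 and 0.49 (adjusted p = 0.0538) after 30 days, with 95% intervals of 0.11 to 0.86 and 0.12 to 0.87 before adjustment for the number of genes. Both values lay near the threshold and rested on single muscles. Without trained 20 days replicate 3 the 20-day value was 0.66 (adjusted p = 0.0291), and without trained 20 days replicate 2 it was 0.32 (adjusted p = 0.333, with a range of 0.0291 to 0.333 over 24 alternatives). Without trained 30 days replicate 3 the 30-day value was 0.76 (adjusted p = 0.0103), and without replicate 2 of that group it was 0.25 (adjusted p = 0.456, with a range of 0.0103 to 0.857 over 25 alternatives). Leaving out contralateral 2 days replicate 2 also gave calls at 20 days (0.51, adjusted p = 0.0457) and at 30 days (0.52, adjusted p = 0.0440), as did an intensity trend in the limma fit at 30 days (0.49, adjusted p = 0.0481).

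Against trained muscle at 2 days, Jun was lower by -0.97 (SE 0.23, adjusted p = 0.0269) at 10 days, by -1.29 (adjusted p = 9.11e-04) at 20 days and by -1.28 (adjusted p = 5.94e-04) at 30 days. It was the only tested member called lower at 10 days, where 0.849% of all genes were. Within rats the values were of like size and none was called, at -0.99 (adjusted p = 0.390), -1.29 (adjusted p = 0.0768) and -1.38 (adjusted p = 0.0544). Over 14 alternatives the adjusted p ranged from 2.83e-04 to 0.0768 at 20 days and from 4.50e-06 to 0.0544 at 30 days. At 10 days the call was also lost without trained 10 days replicate 1 (-1.03, adjusted p = 0.0657), trained 10 days replicate 3 (-0.74, adjusted p = 0.154) or trained 2 days replicate 3 (-0.77, adjusted p = 0.165), and the adjusted p ranged from 0.0222 to 0.390 over 14 alternatives.

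The RefSeq table of promoters held 5 of the 7 members, and those of Junb and Jund are shown as examples of Jun genes that were called higher. Each is the 250 bases before the RefSeq start in GRCr8, a later build than that of the values, written along the gene's strand. Capitals mark TGACGTCA (the cAMP response element), CCAAT and TATAAA.
Junb (chr19:40080876-40081125, plus strand): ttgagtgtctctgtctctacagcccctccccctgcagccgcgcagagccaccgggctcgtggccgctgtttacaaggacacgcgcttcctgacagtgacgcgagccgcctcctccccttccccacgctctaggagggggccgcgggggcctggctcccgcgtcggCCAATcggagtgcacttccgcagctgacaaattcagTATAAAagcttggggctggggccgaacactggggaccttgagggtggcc
Jund (chr16:18769772-18770021, minus strand): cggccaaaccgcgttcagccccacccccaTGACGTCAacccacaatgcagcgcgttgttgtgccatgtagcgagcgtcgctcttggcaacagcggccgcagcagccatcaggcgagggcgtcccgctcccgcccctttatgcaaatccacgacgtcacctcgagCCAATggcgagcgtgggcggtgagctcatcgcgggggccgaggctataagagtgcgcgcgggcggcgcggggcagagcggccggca
The Junb window held CCAAT at -85 to -81 and TATAAA at -49 to -44, counted from -1 at the base before the start. The Fosb window, not shown, held TATAAA on the opposite strand at -180 to -175. The Jund window held TGACGTCA at -221 to -214 and CCAAT at -86 to -82. Searched on both strands, TGACGTCA was in 1.70% of 27457 promoter windows of this length, CCAAT in 34.3% and TATAAA in 13.1%. The AP-1 motif TGANTCA (6.36% of windows), CACGTG (5.79%) and the CArG box of serum response factor (1.50%) were in none of the 5 members' windows, and those of Fosl1 and Fosl2 held none of the searched letters. These matches describe letters in a window, and no binding was measured. Fos and Jun were not in the table.

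Junb, a Jun protein that in many settings opposes Jun, was called higher at all 4 time points. The trained muscles held 26.03, 38.0 and 36.6 scaled TPM after 2 days and 31.1, 36.7 and 29.2 after 10 days. They held 45.9, 81.6 and 35.9 after 20 days and 23.4, 24.9 and 18.2 after 30 days. Of the 12 contralateral muscles, 11 lay at 9.74 or below, and contralateral 2 days replicate 2 at 23.6, which put 2 of the 3 trained muscles at 30 days within the contralateral range. The log2 difference was 2.16 (SE 0.34, adjusted p = 3.40e-05) after 2 days, 2.12 after 10 days, 2.78 (adjusted p = 1.73e-06) after 20 days and 1.59 (SE 0.34, adjusted p = 0.00152) after 30 days. Against trained muscle at 2 days Junb differed by -0.04 at 10 days (95% interval -0.92 to 0.84), by 0.62 at 20 days (-0.26 to 1.50) and by -0.57 at 30 days (-1.45 to 0.31). Within rats the differences at 10 and 30 days were above 0, at 0.42 and 0.40. The authors' gene-level table gave -1.20 at 30 days (adjusted p = 0.0248), where the median of all genes was -0.48. Over 14 alternatives the adjusted p at 30 days ranged from 0.0248 to 0.719. All 3 trained muscles at 30 days lay below all 3 at 20 days, a difference that was not tested.

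Jund was well above the contralateral range after 2 days and close to it by 30 days. Its trained muscles held 64.3, 93.0 and 103 scaled TPM after 2 days and 57.2, 80.4 and 38.5 after 10 days. They held 45.2, 69.6 and 24.3 after 20 days and 24.3, 26.8 and 14.9 after 30 days. All trained muscles through 20 days lay above the contralateral maximum of 19.3, and at 30 days replicate 3 lay within the contralateral range of 10.3 to 19.3. The ratio of means was 6.33 after 2 days, 4.28 after 10, 3.38 after 20 and 1.60 after 30 days. The log2 difference was 2.57 (SE 0.24, adjusted p = 2.11e-08) after 2 days and 1.59 (SE 0.24, adjusted p = 3.30e-05) after 20 days. After 30 days it was 0.63 (SE 0.24, adjusted p = 0.0657), while within rats it was 0.85 (adjusted p = 0.0325), with the trained muscle above its own contralateral in 3 of 3 rats. This 30-day value was 0.87 (adjusted p = 0.0360) without trained 30 days replicate 3, 0.67 (adjusted p = 0.0494) without contralateral 20 days replicate 1 and 0.47 (adjusted p = 0.310) without trained 30 days replicate 2, and the adjusted p ranged from 0.0325 to 0.515 over 25 alternatives.

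Against trained muscle at 2 days, Jund was lower at 30 days by -1.95 (SE 0.30, adjusted p = 1.83e-04). Within rats it was lower by -1.54 (adjusted p = 0.0294), and all 14 alternatives called it, with adjusted p from 2.90e-06 to 0.0294. All 3 trained muscles at 30 days, 26.8 at most, lay below all 3 at 2 days. At 20 days the difference was -0.99 (SE 0.30, adjusted p = 0.0453), close to the threshold. Leaving out trained 2 days replicate 2 (-0.92) or 3 (-0.85), or trained 20 days replicate 1 (-1.03) or 3 (-0.59), each ended the call, as did the block (-0.81, adjusted p = 0.219). Over 14 alternatives the adjusted p ranged from 0.0106 to 0.254.

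**Figure D2:**
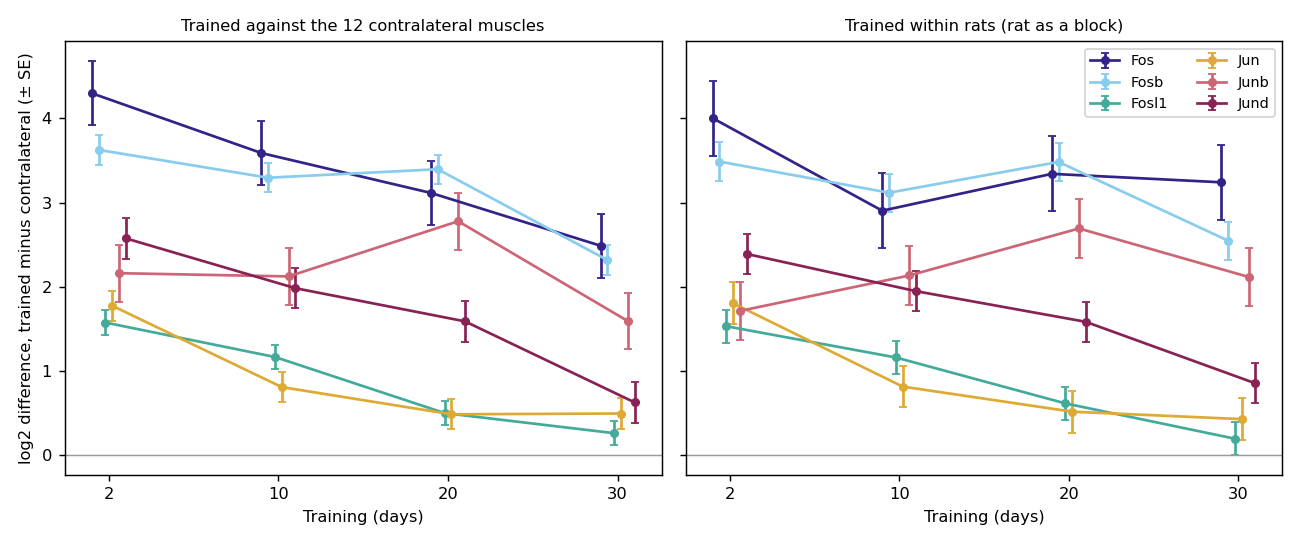
Log2 difference between trained and contralateral muscle for the 6 tested members by days of training, as estimates with SE bars, against all 12 contralateral muscles (left) and within rats (right). Fosb, Fosl1, Jun and Jund come down between 2 and 30 days in both panels, Fosb from 3.63 to 2.32 (left) and 3.49 to 2.55 (right). The fall of Fos from 4.30 to 2.49 on the left is 4.00 to 3.24 on the right.

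Counted together, 1 of the 6 tested members was called lower than at 2 days in trained muscle at 10 days, 3 at 20 days (4.44% of all genes) and 5 at 30 days (7.91% of all genes). With the values as deposited, 27.0% of all genes were called lower at 30 days and 6.47% at 20 days. With the rat as a block these counts were 0, 0 and 2, the latter being Fosl1 and Jund.

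The sum of the 7 genes was 81.4 ± 17.2 scaled TPM in contralateral muscle (SD, n = 12) and 514 ± 116 in trained muscle after 2 days (SD, n = 3). It was 315 ± 75.4 after 10 days, 270 ± 65.6 after 20 days and 179 ± 48.6 after 30 days, and the lowest trained muscle, 134, lay above the highest contralateral one, 125. The make-up of the sum differed as well. The Fos genes took 13.6% ± 5.62 of it in contralateral muscle, 22.6% at most, and between 30.9% and 49.3% in each of the 12 trained muscles. Fos was listed above Jun in 2 of 3 trained muscles at 2 days and in all 3 at 10 and 20 days, and Jun was above Fos in all 3 at 30 days and in every contralateral muscle. The ratio of Fos to Jun was 0.212 ± 0.121 in contralateral muscle, where it reached 0.394, and 1.17 ± 0.214, 1.39 ± 0.108, 1.27 ± 0.311 and 0.809 ± 0.164 in trained muscle after 2, 10, 20 and 30 days. These are shares of mRNA, and no protein or dimer was measured.

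**Figure D3:**
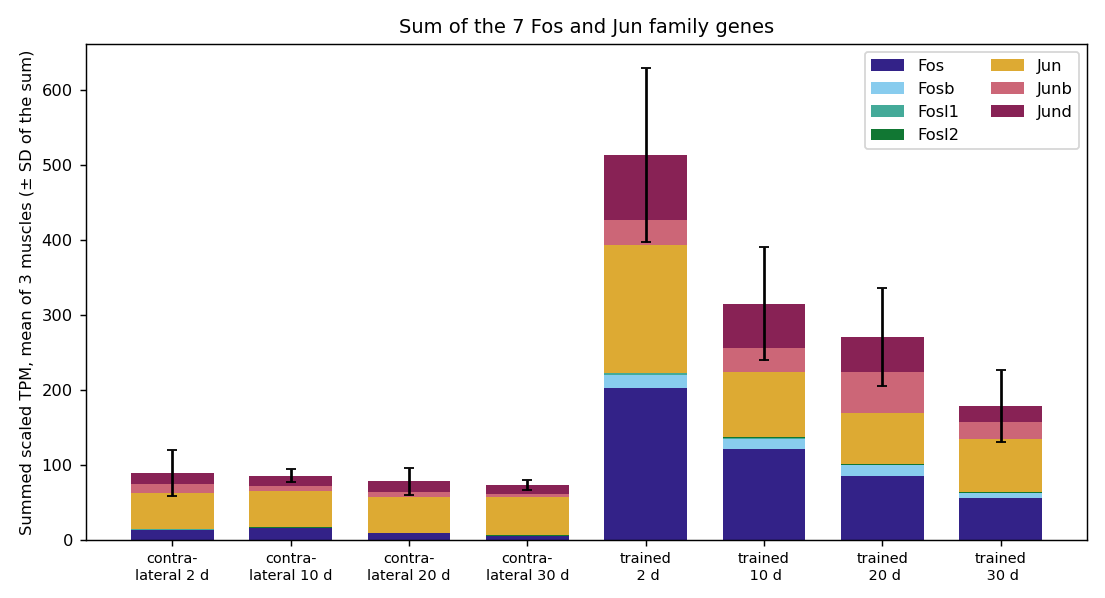
Stacked mean scaled TPM of the 7 genes in each group of 3 muscles, with bars for the SD of the sum. The trained sums, from 514 at 2 days to 179 at 30 days, stand above the contralateral sums, and the Fos part (dark blue, bottom) makes up a larger share of each trained column than of any contralateral one.

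Genes around the family were taken from lists that name other bZIP genes, its upstream signalling and its known targets. Among 21 tested bZIP genes, listed as possible partners of AP-1 proteins, 8 were called higher and 0 lower after 2 days, and 5 higher and 5 lower after 30 days. Not every gene of this list is an established partner of Fos or Jun, and pairing was not measured. Their median log2 difference was 0.24 after 2 days and -0.05 after 30 days, against -0.01 for all genes at both times. Of all tested genes, 15.4% were called higher at 2 days, 15.6% at 10, 11.7% at 20 and 11.1% at 30 days. With the values as deposited these shares were 18.9%, 18.6%, 10.3% and 5.74%. Called lower were 13.5% at 2 days, 13.3% at 10, 9.64% at 20 and 9.46% at 30 days, and with the values as deposited 6.49%, 6.06%, 6.62% and 23%. Atf3, a stress-induced partner of Jun proteins, rose from 5.89 ± 3.82 to a mean of 345 scaled TPM after 10 days (log2 difference 5.71, adjusted p = 4.48e-09) and was still at 122 after 30 days. Maff, a small Maf protein, and Ddit3, the stress-induced factor CHOP, rose as well, by up to 3.40 and 2.00. Mafa, a large Maf protein, fell with time, by -0.96 at 10 days and -2.06 at 30 days (adjusted p = 3.06e-05), and Cebpd fell by -1.67 at 30 days (adjusted p = 0.00340).

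The signalling genes upstream of Fos and Jun were called in both directions, as were genes at large. Of all tested genes, 15.4% were called higher and 13.5% lower at 2 days, and 15.6% and 13.3% at 10 days. At 20 days these shares were 11.7% and 9.64%, and at 30 days 11.1% and 9.46%. Of 11 tested serum response and ternary complex factors, 2 were called higher and 1 lower after 2 days and 1 each after 30 days, with no called value past 0.67 in either direction. Srf rose by 0.34 at 2 days (adjusted p = 0.0459), Mef2c by 0.64 at 10 days and Elk3 by 0.66 at 20 days, while Elk1 fell by -0.42 at 2 days and Crtc2 by -0.38 at 30 days. Of 26 tested genes of the MAP kinase cascade, 5 were called higher and 6 lower at 2 days, and 3 each at 30 days, with a median of 0.05 and 0.00. Map3k14 rose by 1.26 at 20 days, Map3k8 by 1.21 and Map3k7 by 0.88 at 10 days, and Mapk14, which encodes p38 alpha, and Mapk9, which encodes JNK2, fell by -0.61 at 10 and -0.58 at 20 days. Among 10 dual-specificity phosphatases, which switch off MAP kinases, 3 were called higher at 2 days, 5 at 10 days and 2 at 20 and at 30 days. Dusp2 had the largest rise, 3.65 at 10 days (adjusted p = 6.35e-14), from 0.198 ± 0.147 to 14.03 scaled TPM. Dusp5 rose by 0.81 at 10 days, from 0.354 ± 0.170 scaled TPM, and Dusp14 by 0.67 at 2 days. Dusp7 fell by -0.83 at 30 days (adjusted p = 0.0341). Of the 10 phosphatases, 3 reached 1 scaled TPM in fewer than 3 contralateral muscles, Dusp2 and Dusp5 among them. These passed the filter through the trained group. Of 10 genes of Fos and Jun protein turnover and mRNA decay, Zfp36l2, whose protein binds AU-rich mRNAs, rose at all 4 time points, by up to 0.84, and Zfp36l1 by 0.49 at 10 days. Cop1, a ubiquitin ligase subunit that targets Jun, fell by -0.61 at 10 days and Auh by -0.32 at 20 days.

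The list of known AP-1 targets, chosen with earlier results known, held 25 genes. Of these 19 passed the filter, and the rest were too low to test. Of the 19, 15, 16, 14 and 13 were called higher at 2, 10, 20 and 30 days, and 0, 1, 1 and 0 lower. Their medians were 1.30, 1.38, 1.13 and 0.78. Of all genes, 15.4%, 15.6%, 11.7% and 11.1% were called higher at those times. Hbegf, a growth factor of the EGF family, rose by 3.99 at 2 days (adjusted p = 3.36e-09), and Hmox1, which breaks down haem, by 3.51 at 10 days. Nqo1 fell by -0.48 at 10 days (adjusted p = 0.00567). Of these 19 genes, 4 reached 1 scaled TPM in fewer than 3 contralateral muscles, as did 4 of the 21 other immediate early genes and 3 of the 10 phosphatases, so they passed the filter through the trained group. Of 21 other immediate early genes, 17, 19, 16 and 13 were called higher, with medians of 1.06, 0.94, 1.07 and 0.74. Egr1 went from 4.28 ± 1.54 to 140 scaled TPM after 2 days and 48.6 after 30 days, and Csrnp1 rose by 3.82 at 2 days. Nr4a3 rose by 3.57 at 2 days and 4.47 at 30 days, and Gadd45g and Klf2 fell by -1.62 and -0.96 at 30 days.

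With the values as deposited, 12 known targets and 11 other immediate early genes were called higher at 30 days, while among the MAP kinase genes 0 were higher and 8 lower and among the serum response and ternary complex factors 0 and 3. The fall of Auh at 20 days was not called with that scaling.

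**Figure D4:**
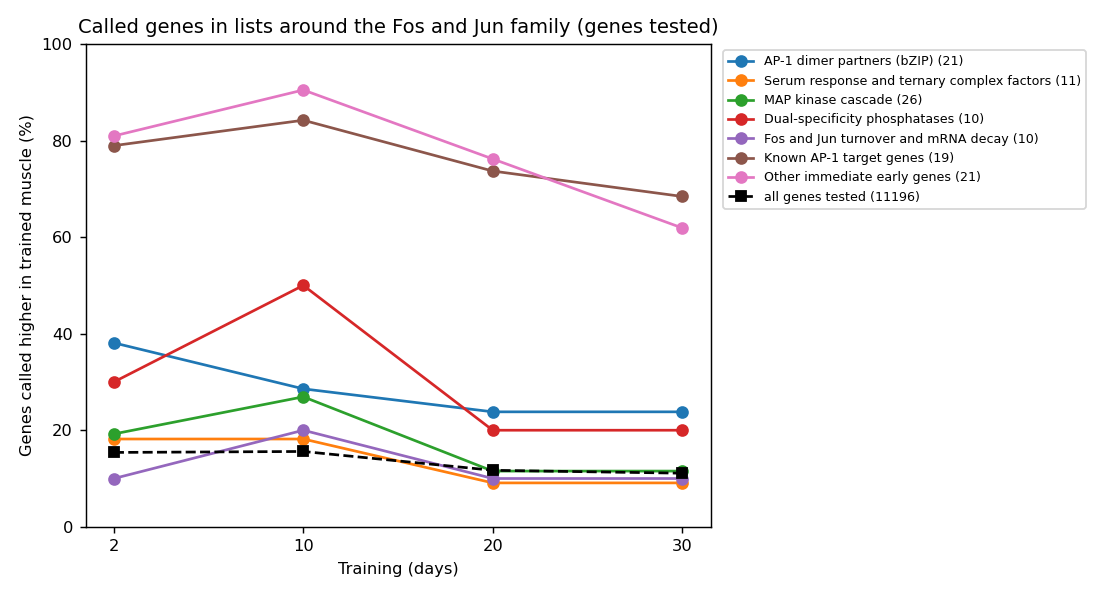
Percent of the tested genes of each list called higher in trained muscle by days of training, with all 11196 tested genes as the dashed line; the number tested stands beside each name. At 2 days other immediate early genes (17 of 21) and known AP-1 targets (15 of 19) lie furthest above the dashed line at 15.4%. The bZIP genes (8 of 21), phosphatases (3 of 10), MAP kinase genes (5 of 26) and serum response factors (2 of 11) also lie above it, and the turnover genes (1 of 10) below. Listed genes below the filter are not counted, and 4 genes of each of these lists passed it through the trained group.

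Of the 10 skeletal muscle fibre markers, 5 were called lower and 0 higher after 2 days, with a median of -0.37 over the 10. The 5 were Pvalb, Ryr1, Actn3, Mb and Tnnt3. At 10 days 4 were lower and 3 higher, at 20 days 4 and 1, and at 30 days 3 and 1. Mb was among the higher at 10, 20 and 30 days. Markers of some other cell types were called higher in the same muscles. Of all genes, 15.4%, 15.6%, 11.7% and 11.1% were called higher at 2, 10, 20 and 30 days, and 13.5%, 13.3%, 9.64% and 9.46% lower. All 9 macrophage markers were called higher at 20 and 30 days and 7 of 9 at 2 days, and their sum went from 18.3 to 42.7 scaled TPM in contralateral muscle to between 55.0 and 168 in trained muscle. The 6 tested fibro-adipogenic markers were called higher at 10, 20 and 30 days and 4 of them at 2 days, with sums of 89.7 to 276 in contralateral and 321 to 1021 in trained muscle. Endothelial sums were 42.8 to 43.3 in trained muscle at 2 days, inside the contralateral range of 42.3 to 56.0, and 50.7 to 89.6 at the later times. The 2 neutrophil markers in the table summed to 2.44 or less everywhere, and none of the lymphocyte markers but Cd4 passed the filter. None of the 4 tested blood and 3 tested adipocyte markers was called at any of the 4 time points. Of 5 tested Schwann cell markers, 0 were called higher at any time and 2 lower at 30 days. At 2 days, 1 of 3 tested satellite cell markers was called higher and 1 lower. For 6 smooth muscle and pericyte markers these counts were 2 and 1. The part of these cell types in the levels of the Fos and Jun genes was not tested.

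By the Pearson correlation of log2 values over the 24 muscles, the genes most like Fos included Egr1 (r = 0.973) and Otud1 (0.968), and those most like Fosb were Egr1 (0.986), Midn (0.986) and Csrnp1 (0.983). Fosl1 lay nearest to Hspb8 (0.974), Pvr (0.971) and Tuba1b (0.970), and Jund to Klhl40 (0.959), Lmna (0.958) and Mfge8 (0.956). Jun had looser neighbours in Cap2 (0.912), Tubb6 (0.904) and Pdlim3 (0.903), as had Junb in Sik1 (0.942), Nr4a1 (0.935) and Metrnl (0.928). Each set of points is made of 12 trained and 12 contralateral muscles, so any gene that rises in trained muscle shares much of its pattern with the members. Among the 12 trained muscles alone, Fos and Jun had r = 0.868 and Fos and Jund 0.837, whereas Fos and Junb had 0.257 and Jun and Junb 0.181. The differences between time points enter these values, so they do not measure how muscles of the same time point vary together.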

How the data were processed

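Both tibialis anterior muscles of 12 rats were sequenced (poly-A, directional libraries, 150-base paired reads). The labels hold 3 rats a time point, although the series' design text names 4, and other samples were not analysed here. The authors trimmed the reads, aligned them with STAR 4.4.1d in Partek Flow to Rnor_6.0 (rn6) and quantified Ensembl release 99 transcripts. The deposited transcript table holds TPM values for 20027 transcripts, summing to 634431 in every library, and the deposited gene-level table holds a normalized signal for 4635 genes. The authors' methods name DESeq2 for scaling and testing. Their own table of p-values, FDR and ratios was not used. As the deposited values were not taken to be counts, limma on log values was used here.

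TPM were summed per gene symbol, divided by a median-of-ratios factor (0.778 to 1.14) computed here, and taken as log2(value + 1). Genes at 1 or above in at least 3 of 24 muscles were kept (11196). limma 3.58.1 (R 4.3.3) was fitted to 5 groups, the 12 contralateral muscles and the trained muscles of each day, with Benjamini-Hochberg adjustment over all genes. A second fit used the rat as a block, since left and right muscles come from the same animal: the deviations of paired muscles from their group means correlated with a median of 0.174 (0.0277 to 0.343, 12 rats), against -0.00964 between different rats. The comparison over 12 rats had the block from the start. The functions were tested on simulated data. Promoters came from a RefSeq table (GRCr8). Python 3.11.15 was used for the rest.

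Depth is known only in part. In each library, 34.8% to 51.6% of low values lay within 0.05 of a whole multiple of a fitted step, taken as 1 read. Evenly spread values would give 10%, which does not allow for the step being fitted to the same values. This puts Junb at about 28.6 to 334 reads, Jund at 105 to 281 and Jun at 874 to 1498 in contralateral libraries. The lowest Jun and Jund counts came from contralateral 30 days replicate 2. Its step, 174.5 (value times bases), lay far from the median of 118.9, so these counts are uncertain.

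The members and the gene lists were chosen with earlier results of these data known. Named genes were all members, the 3 largest called rises and 2 largest called falls of each list at any time point, and the 3 genes most correlated with each member. An item that this rule names is not reported here. Alternatives were the deposited scaling, a pseudocount of 0.1, other filters, an intensity trend, the block, contralateral muscles of the same day, the highest transcript, and leaving out each library. The authors' gene-level table and 2 left-out contralateral libraries in the same-day comparison were added after seeing the data.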

Additional observations from a re-analysis of the deposited data

Results flagged for a closer look

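The level of 5 members in trained muscle was called different at a later time point, by a limma test against trained muscle at 2 days. The contralateral muscles enter this test only through the estimate of the spread, so it compares levels and not trained minus own contralateral muscle. Of all genes, 0.849%, 4.44% and 7.91% were called lower at 10, 20 and 30 days. Jun was lower at 10 days (-0.97), at 20 days (-1.29) and at 30 days (-1.28). Fosl1 was lower at 20 days (-1.08) and at 30 days (-1.31), as was Jund (-0.99 and -1.95). Fos (-1.81) and Fosb (-1.31) were lower at 30 days. Differences between 10, 20 and 30 days were not tested. With the rat as a block, Fosl1 (-1.34) and Jund (-1.54) at 30 days kept their call, and none of the other 7 did.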

How the results depend on the processing

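Of the members' own values under the alternatives, 1088 kept direction and side of the threshold, 12 gained a call, 21 lost one and 7 changed sign. The 7 changes of sign were all in values that were not called. For Junb at 10 against 2 days (-0.21 to 0.0582 over the left-out libraries) they were 0.00845 in the authors' gene-level table, 0.42 with the replicate block and 0.03, 0.0582 and 0.03 without trained 10 days replicate 3, trained 2 days replicate 2 and trained 2 days replicate 3. For Junb at 30 against 2 days it was 0.40 with the block, and for Fosb at 20 against 2 days (-0.43 to 0.0359) 0.0359 without trained 2 days replicate 1.

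The replicate block, which pairs the muscles of 1 rat, left 0 members called at 10 and at 20 days against 2 days and 2 at 30 days, and 7, 194 and 314 of all genes, against 216, 901 and 1677. At 30 days it called 4 members higher, and 1377 of all genes against 2304. Beyond the members named beside their results it changed no other call of a member. With contralateral muscles of the same day, 2007, 1589 and 1121 genes were called at 10, 20 and 30 days, and in the same comparison 1671 at 2 days without contralateral 2 days replicate 2 and 852 at 30 days without contralateral 30 days replicate 1. At 10 against 2 days 0 members were called in the gene-level table. With values as deposited, 3294 genes were called at 30 against 2 days, and the median of all genes moved from -0.01 to -0.27. In the gene-level table that median was -0.48, and Jun and Jund at 30 days were 0.04 and 0.19, where the median of all genes was -0.35. The F test among contralateral muscles called 7 genes, 2 without the filter and 4 with a pseudocount of 0.1. The causes were not tested.

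Leaving out each library gave 6 members at 2 and at 10 days, 4 to 6 at 20 and 3 to 5 at 30 days, and 0 to 2, 2 to 3 and 4 to 5 against 2 days. Over all genes it gave 1492 to 3496, 2130 to 3295, 1730 to 2500 and 1469 to 2438 calls at 2, 10, 20 and 30 days, 66 to 484, 329 to 1323 and 715 to 2123 against 2 days, and 0 to 12 in the F test. The lowest all-gene counts at 2 days and at 20 and 30 against 2 days came without trained 2 days replicate 2, and the highest without trained 2 days replicate 1. The 3 muscles a time point and low levels of Fosl1 and Fosl2 limit what can be seen.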

Other observations

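Jun, Junb and Jund ranked the trained muscles alike. At 10, 20 and 30 days replicate 2 held the highest and replicate 3 the lowest value of each of the 3 genes, whereas at 2 days the order differed between them. The highest muscle exceeded the lowest by 1.71, 1.61 and 2.06 times for Jun at 10, 20 and 30 days and by 2.09, 2.87 and 1.80 times for Jund. For Junb the ratios were 1.26, 2.28 and 1.36. Over all 11196 tested genes, 153 (1.37%) had this same order of the 3 muscles at all 3 times. The pattern was noticed in the values, and the replicate numbers name different rats at each time point.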
